A study of Mus musculus with 8 samples.

Results

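The hair bundle genes described here are *Espn*, *Eps8*, *Eps8l2*, *Triobp*, *Strc*, *Grxcr1*, *Fscn2*, *Ptprq*, *Myo3a* and *Loxhd1*. They were chosen by symbol, and all 10 were found among the 36536 genes in the count files. All 10 passed the filter on low counts in every comparison. In P6 GFP- cells *Grxcr1* in both libraries and *Myo3a* in replicate 1 were below its count minimum. They passed through the groups where their levels were higher. RNA-seq libraries were made from sorted cochlear cells of *Lfng*-GFP BAC transgenic mice (strain B6;FVB-Tg(Lfng-EGFP)HM340Gsat/Mmucd) at postnatal day (P) 1 and P6, and each age gave a GFP+ and a GFP- group with 2 replicate libraries. Cochleas were dissected fresh, dissociated and sorted with no culture and no treatment, and each library was made from a pool of sorted cells. All 4 groups came from the transgenic strain. The *Lfng* regulatory sequences drive GFP in Deiters' cells, outer pillar cells, border cells and inner phalangeal cells but not in inner pillar cells, and the GFP+ group holds the brightest cells only. Cells with a weak GFP signal, which the study thought were probably inner pillar cells and inner hair cells, were left out of both groups. The GFP- group holds cells of the dissected tissue without GFP signal. The labels do not say whether the replicates came from separate animals, so p-values measure only the spread between these samples, which may be technical.

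The hair bundle is a staircase of actin-filled stereocilia on top of each inner ear hair cell, and its deflection opens the channels that start hearing. Crosslinkers such as espin and fascin pack the actin filaments, TRIOBP packs the rootlet that anchors each stereocilium, and proteins at the tip set the length. Links and membrane proteins at the base and between neighbouring stereocilia hold the bundle together. Supporting cells, which surround hair cells, do not carry such a bundle.

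Gene counts ranged from 17769024 to 67695039 per library, and levels are given as counts per 1000000 gene counts of the library (CPM). In P6 GFP+ cells replicate 2 stood apart from replicate 1. Over the 751 genes that were more than 16-fold higher in GFP- cells at P1, the median log2 difference of replicate 2 from replicate 1 was 1.04 at P6 and -0.00061 at P1 in GFP+ cells. The summed CPM of 3 endothelial markers was 33.7 in P6 GFP+ replicate 1 and 141 in replicate 2. All 8 supporting cell markers were past the criteria in GFP+ cells at both ages, with summed levels from 5936 to 9407 CPM against 264 to 398 CPM in GFP- cells. Most markers in a separate list of hair cell genes were also higher in the GFP+ libraries. Of 15 such markers, 13 at each age were higher at an adjusted p below 0.05 (25.5% of all genes at P1 and 15.5% at P6). Past the criteria were 10 at P1 and 11 at P6 (6.46% and 4.88% of all genes). *Slc17a8* did not differ past the test at either age, and *Dll1*, which encodes a Notch ligand and is named after its values were seen, did not at P1 (0.06 ± 0.24, adjusted p = 0.855) and was lower in GFP+ cells at P6 (-1.64 ± 0.32 on the log2 scale, adjusted p = 0.0151, and 0.0916 or 0.122 without P6 GFP- replicate 1 or 2). The summed level of the 15 was 373 and 495 CPM in P1 GFP+, 79.6 and 81.1 CPM in P1 GFP-, 329 and 285 CPM in P6 GFP+, and 50.2 and 63.7 CPM in P6 GFP- cells. The only 0 count in that list was *Atoh1* in P6 GFP- replicate 2. These libraries are bulk RNA, so fewer hair cells and less RNA per hair cell cannot be told apart, and the part of hair cells in the levels below was not tested. Nor was the part of the sort, which left out cells with a weak GFP signal, in the study's view probably some of them inner hair cells.

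Each comparison was fitted over all genes in edgeR (quasi-likelihood test), with Benjamini-Hochberg adjustment. "Past the criteria" means p and adjusted p below 0.01 with a fold change above 4, and "higher", "lower", "rose" and "fell" are used from an adjusted p below 0.05. At P1, 6 of the 10 hair bundle genes were past the criteria and higher in GFP+ cells, where 6.46% of the 18682 genes tested were. An adjusted p below 0.05 with the higher level in GFP+ cells was found for 9 of the 10, against 25.5% of all genes. At P6, 4 of the 10 were past the criteria and higher in GFP+ cells, against 4.88% of 18294 genes. Of these 4, *Grxcr1* passed the filter on low counts through the GFP+ libraries alone. The P6 count depended on single libraries, and so did the count over all genes. Over all genes 892 were past the criteria and higher at P6, and the fits without GFP- replicate 1 and without GFP- replicate 2 gave 359 and 0, with 2 and 0 of the hair bundle genes, and those without GFP+ replicate 1 and without GFP+ replicate 2 gave 1016 and 1106, with 6 of the hair bundle genes each. Where none was past the criteria, 2327 of 18019 genes and 8 of the 10 were higher at an unadjusted p below 0.05 in edgeR. All 10 were higher at P6 at an adjusted p below 0.05, against 15.5%. Without GFP- replicate 1 this count was 7 of 10 (6.91% of all genes), with *Eps8*, *Triobp* and *Fscn2* lost, and without GFP- replicate 2 it was 6 (5.97%), with *Ptprq* lost as well. The median log2 fold change of the 10 genes was 2.63 at P1 and 2.13 at P6, beside 0.0075 and -0.017 over all genes tested. Levels of the 2 replicates did not overlap, with GFP+ above GFP- cells, for 9 genes at P1 (34.5% of all genes) and for all 10 at P6 (35.7%). With age, none of the 10 rose at an adjusted p below 0.05 in either fraction, where 12.1% of all genes rose in GFP+ and 11.3% in GFP- cells. In GFP+ cells 1 gene fell past the criteria (0.93% of 17213 genes did) and 4 fell at an adjusted p below 0.05 (8.31%). In GFP- cells 2 fell past the criteria (0.418% of 18920 genes) and 4 at an adjusted p below 0.05 (7.87%). Both counts hold *Grxcr1*, which passed the filter there through the P1 libraries alone. Without P1 GFP+ replicate 2 the adjusted p in GFP+ cells was 0.167 for *Grxcr1*, 0.173 for *Ptprq* and 0.172 for *Loxhd1*, and without replicate 1 it was 0.143 for *Grxcr1*. Markers of other cells moved with age in the GFP+ libraries too. The 4 glia markers rose, from a summed 130 and 70.9 CPM at P1 to 666 and 1690 CPM at P6, and the 3 melanocyte markers tested rose, with summed levels of 4.73 and 6.99 CPM at P1 and 40.1 and 97.5 CPM at P6. Of the 8 supporting cell markers 3 fell, 2 of them past the criteria, and their sum was 8977 and 9407 CPM at P1 and 7952 and 5936 CPM at P6. The part of these cells in the falls was not tested. The comparisons share libraries in pairs, so their results are not independent of each other.

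**Figure D1:**
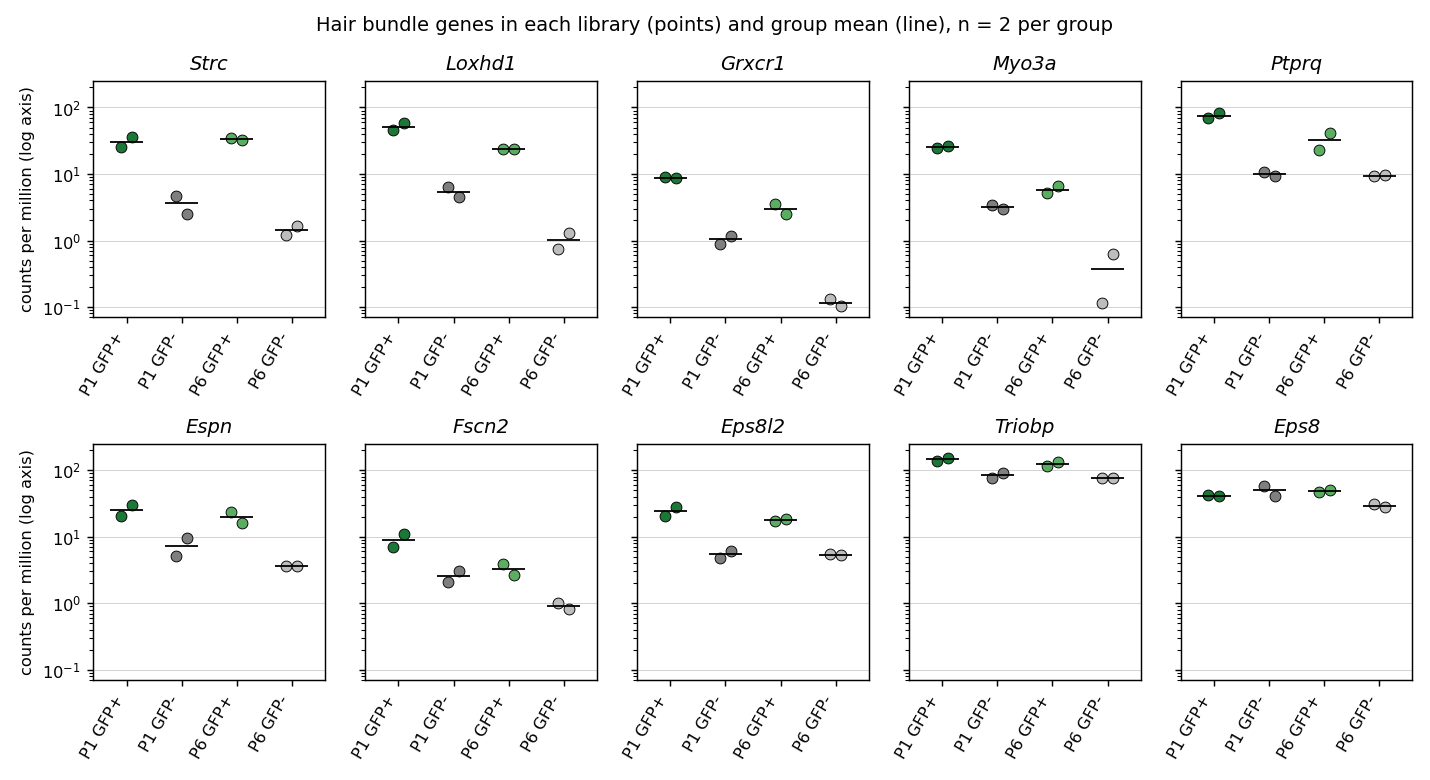
Level of each hair bundle gene (CPM, log axis) in the 8 libraries, with points for libraries and a line for the mean of 2 replicates per group. The GFP+ points lie above the GFP- points of the same age in all panels except that of *Eps8* at P1, and *Ptprq* in GFP- cells lies between 9.26 and 10.6 CPM at both ages.

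The bundling genes *Espn*, *Fscn2* and *Triobp* were higher in GFP+ cells by different amounts. *Espn*, which encodes the crosslinker espin, was at 20.2 and 29.5 CPM in P1 GFP+ and 5.04 and 9.62 CPM in P1 GFP- cells. At P6 it was at 23.3 and 15.8 CPM in GFP+ and 3.57 and 3.63 CPM in GFP- cells. The groups did not overlap at either age, and the GFP+ levels of P1 and P6 did overlap. The log2 fold change of GFP+ over GFP- cells was 1.85 ± 0.33 (SE, adjusted p = 0.00482) at P1 and 2.44 ± 0.28 (adjusted p = 0.00347) at P6, so that only P6 was past the 4-fold criterion. With age it was -0.25 ± 0.28 in GFP+ (adjusted p = 0.554) and -0.84 ± 0.32 in GFP- cells (adjusted p = 0.116). In P1 GFP- cells the replicate with the higher *Espn* level also had more of the neuron markers, which summed to 136 CPM in replicate 1 and 456 CPM in replicate 2. Their part in the *Espn* value was not tested. Without P1 GFP- replicate 2 the log2 fold change at P1 was 2.38 and past the criteria.

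*Fscn2*, the fascin found in hair cell stereocilia, was at 6.94 and 10.8 CPM in P1 GFP+, 2.08 and 3.07 CPM in P1 GFP-, 3.88 and 2.61 CPM in P6 GFP+, and 1.01 and 0.812 CPM in P6 GFP- cells. At each age both GFP+ libraries were above both GFP- libraries, and in each fraction both P6 libraries were below both P1 libraries. The log2 fold change of GFP+ over GFP- cells was 1.87 ± 0.30 (adjusted p = 0.00326) at P1 and 1.82 ± 0.38 (adjusted p = 0.0173) at P6, where the adjusted p was 0.0965 or 0.155 without GFP- replicate 1 or 2. It fell by 1.32 on the log2 scale in GFP- cells (SE 0.34, adjusted p = 0.0378, and 0.0788, 0.146 and 0.191 without P1 GFP- replicate 2, P6 GFP- replicate 1 and P6 GFP- replicate 2), and its change in GFP+ cells was -1.36 ± 0.35 (adjusted p = 0.0519). *Fscn1*, the widely expressed fascin, had the opposite distribution. It was at 55.5 and 61.4 CPM in P1 GFP+ against 215 and 212 CPM in P1 GFP- cells. The difference was -1.76 ± 0.09 on the log2 scale (adjusted p = 3.42e-05), and -1.06 ± 0.16 (adjusted p = 0.00764, and 0.0756 or 0.0569 without P6 GFP- replicate 1 or 2) at P6.

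*Triobp*, whose product bundles the actin of the rootlet, was measured with high counts in every group. It was at 139 and 152 CPM in P1 GFP+, 77.1 and 90.1 CPM in P1 GFP-, 115 and 133 CPM in P6 GFP+, and 77.0 and 75.2 CPM in P6 GFP- cells. Every GFP+ library was above every GFP- library. The fold was small, with a log2 fold change of 0.90 ± 0.10 (adjusted p = 0.0008) at P1 and 0.70 ± 0.15 (adjusted p = 0.0208) at P6. Without P6 GFP- replicate 1 or 2 the P6 adjusted p was 0.151 or 0.205. With age it was -0.14 ± 0.12 in GFP+ cells (adjusted p = 0.442) and 0.06 ± 0.12 in GFP- cells (adjusted p = 0.77).

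Genes of the stereocilia tip divided into ones with a steep and ones with a shallow difference between the fractions. *Myo3a* encodes a class III myosin that carries espin towards the tip. Its level was 24.8 and 26.4 CPM in P1 GFP+, 3.40 and 2.93 CPM in P1 GFP-, 5.12 and 6.53 CPM in P6 GFP+, and 0.113 and 0.62 CPM in P6 GFP- cells. The 4 groups did not overlap, and every P6 library was below the P1 libraries of its fraction. *Myo3a* fell in GFP+ cells by 2.04 on the log2 scale (SE 0.19, adjusted p = 0.00447), and it was the gene of the 10 past the criteria there. In GFP- cells it fell by 2.91 (SE 0.62, adjusted p = 0.021), which rests on 7 and 42 counts in the P6 libraries. The log2 fold change of GFP+ over GFP- cells was 3.12 ± 0.16 (adjusted p = 3.56e-05) at P1 and 3.96 ± 0.71 (adjusted p = 0.0114) at P6. The P6 value missed the criteria by its adjusted p alone, and it was 3.28 or 5.62 without GFP- replicate 1 or 2. The fall in GFP- cells was 2.18 or 4.54 without the same libraries. Without P6 GFP+ replicate 1 the fall in GFP+ cells was 1.91 and under the 4-fold criterion, and without P1 GFP+ replicate 2 its adjusted p was 0.0321.

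*Myo3b*, the other class III myosin, was at 34.2 and 38.7 CPM in P1 GFP+, 2.14 and 2.79 CPM in P1 GFP-, 9.23 and 12.4 CPM in P6 GFP+, and 1.25 and 0.886 CPM in P6 GFP- cells. It had the higher level in GFP+ cells at both ages, with log2 fold changes of 3.97 ± 0.17 (adjusted p = 2.49e-05) and 3.33 ± 0.33 (adjusted p = 0.00237), and fell by 1.66 (SE 0.19, adjusted p = 0.00707, and 0.0517 without P1 GFP+ replicate 2) in GFP+ cells. Both class III myosins were lower at P6 than at P1 in GFP+ cells.

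*Eps8*, which encodes an actin capping and bundling protein of the tip, did not follow the other genes. It was at 42.9 and 40.3 CPM in P1 GFP+, 57.5 and 41.6 CPM in P1 GFP-, 47.7 and 50.3 CPM in P6 GFP+, and 30.8 and 27.9 CPM in P6 GFP- cells. At P1 the fractions overlapped, with a log2 fold change of -0.15 ± 0.17 (adjusted p = 0.502). At P6 the GFP+ level was higher, by 0.73 ± 0.15 (adjusted p = 0.0183, and 0.113 or 0.209 without P6 GFP- replicate 1 or 2). Without P1 GFP- replicate 2 the P1 value was -0.37, with an adjusted p of 0.00307. *Eps8* has roles in many cell types. Its change with age was 0.33 ± 0.12 in GFP+ (adjusted p = 0.119) and -0.56 ± 0.18 in GFP- cells (adjusted p = 0.0688).

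*Eps8l2*, a relative of *Eps8* that is needed to maintain stereocilia, was at 20.5 and 27.6 CPM in P1 GFP+, 4.72 and 6.13 CPM in P1 GFP-, 17.1 and 18.8 CPM in P6 GFP+, and 5.42 and 5.26 CPM in P6 GFP- cells. GFP+ libraries were above GFP- libraries throughout. The log2 fold change was 2.24 ± 0.21 (adjusted p = 0.000327) at P1, past the criteria, and 1.74 ± 0.20 (adjusted p = 0.00375) at P6. With age the changes were -0.33 ± 0.19 (adjusted p = 0.261) in GFP+ and 0.16 ± 0.23 (adjusted p = 0.645) in GFP- cells. An antisense lincRNA, B230206H07Rik, shares 1482 bases, or 33.9%, of the *Eps8l2* exon length, and reads there cannot be assigned by strand with the kit used. *Eps8l1*, a further relative, was at 1.71 to 4.66 CPM in the 8 libraries and its fractions did not differ past the test at either age (adjusted p = 0.617 and 0.195).

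Among the genes of the base, the shaft and the links, *Strc*, *Loxhd1* and *Grxcr1* had the 3 largest fold changes between the fractions of the 10 genes at both ages. *Strc* encodes stereocilin, which forms the connectors between the tops of outer hair cell stereocilia and their attachment to the tectorial membrane. Its level was 25.3 and 36.3 CPM in P1 GFP+, 4.70 and 2.52 CPM in P1 GFP-, 35.1 and 32.5 CPM in P6 GFP+, and 1.22 and 1.65 CPM in P6 GFP- cells. GFP+ levels overlapped between the ages (log2 fold change 0.23 ± 0.20, adjusted p = 0.437), whereas both P6 GFP- libraries were below both P1 GFP- libraries (-1.13 ± 0.38, adjusted p = 0.0799). The log2 fold change of GFP+ over GFP- cells was 3.21 ± 0.34 (adjusted p = 0.000545) at P1 and 4.55 ± 0.25 (adjusted p = 0.000719) at P6.

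*Loxhd1*, whose PLAT domain protein lies along the stereocilia membrane, was at 45.5 and 57.7 CPM in P1 GFP+, 6.31 and 4.50 CPM in P1 GFP-, 23.5 and 23.6 CPM in P6 GFP+, and 0.746 and 1.30 CPM in P6 GFP- cells. No groups overlapped. It was higher in GFP+ cells by 3.37 ± 0.21 (adjusted p = 7.09e-05) at P1 and 4.51 ± 0.33 (adjusted p = 0.00108) at P6 on the log2 scale. *Loxhd1* fell with age by 1.04 (SE 0.16, adjusted p = 0.0141) in GFP+ and by 2.21 (SE 0.35, adjusted p = 0.00718) in GFP- cells. The fall in GFP- cells was past the criteria, and without P1 GFP- replicate 1 or P6 GFP- replicate 1 it was 1.95 or 1.88 and under the 4-fold criterion, the latter with an adjusted p of 0.0605. Without P6 GFP- replicate 2 it was 2.62, with an adjusted p of 0.024.

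*Grxcr1*, a glutaredoxin-like gene required for normal stereocilia dimensions, was measured with few counts. Its level was 8.92 and 8.72 CPM in P1 GFP+, 0.897 and 1.19 CPM in P1 GFP-, 3.49 and 2.48 CPM in P6 GFP+, and 0.13 and 0.103 CPM in P6 GFP- cells. The P6 GFP- values rest on 8 and 7 counts. The difference between the fractions was past the criteria at both ages, with log2 fold changes of 3.17 ± 0.24 (adjusted p = 0.000147) and 4.64 ± 0.45 (adjusted p = 0.00222). With age *Grxcr1* fell by 1.48 (SE 0.28, adjusted p = 0.0248) in GFP+ cells and by 2.96 (SE 0.46, adjusted p = 0.00654) in GFP- cells, the latter past the criteria. Without P6 GFP- replicate 1 or 2 that adjusted p was 0.0555 or 0.0594.

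*Ptprq* encodes a receptor phosphatase of the shaft connectors near the stereocilia base. It was at 69.2 and 82.0 CPM in P1 GFP+, 10.6 and 9.41 CPM in P1 GFP-, 23.0 and 41.3 CPM in P6 GFP+, and 9.26 and 9.63 CPM in P6 GFP- cells. It fell in GFP+ cells by 1.14 on the log2 scale (SE 0.27, adjusted p = 0.043), and its change in GFP- cells was 0.11 ± 0.17 (adjusted p = 0.682). The log2 fold change of GFP+ over GFP- cells was 3.02 ± 0.12 (adjusted p = 2.02e-05), past the criteria, at P1 and 1.76 ± 0.29 (adjusted p = 0.00945) at P6, where the adjusted p was 0.0637 without GFP- replicate 2. The P6 GFP+ level of *Ptprq* was higher in replicate 2 than in replicate 1, and in the same libraries the summed mesenchyme and cartilage markers were 4986 and 9002 CPM, whose part in the level was not tested. Without replicate 2 the fall in GFP+ cells was 1.59, and without replicate 1 it was 0.80.

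**Figure D2:**
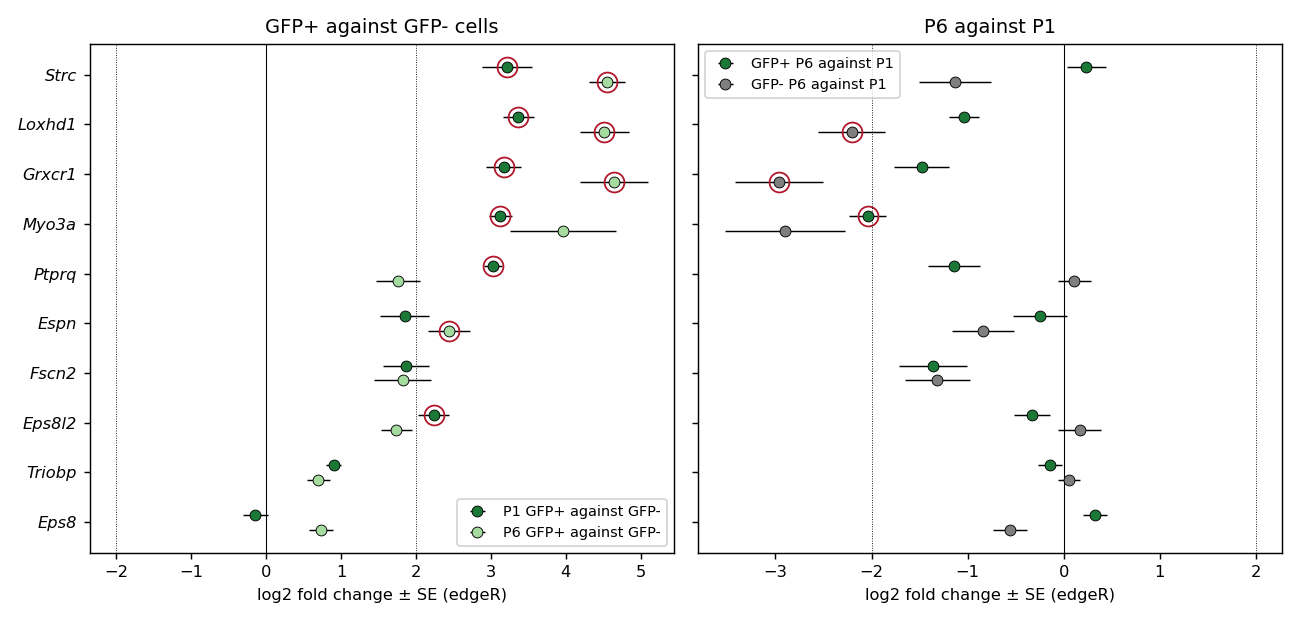
Log2 fold change of each hair bundle gene with its standard error, for GFP+ against GFP- cells at each age (left) and for P6 against P1 in each fraction (right). Dotted lines mark a 4-fold difference and red rings mark genes past the criteria, which are 6 at P1 and 4 at P6 on the left, and *Myo3a* in GFP+ cells and *Loxhd1* and *Grxcr1* in GFP- cells on the right.

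The interaction term of a fit of the 8 libraries asked whether the ratio of GFP+ to GFP- cells differed between the ages. None of the 10 genes had an adjusted p below 0.05 in edgeR, where 6.38% of 19233 genes did. An unadjusted p below 0.05 was found for 5 of them, *Eps8*, *Strc*, *Grxcr1*, *Ptprq* and *Loxhd1*, and for 21.2% of all genes. The DESeq2 test called 4, *Eps8*, *Strc*, *Ptprq* and *Loxhd1*, among 2312 genes in all (12%). Without the filter on low counts edgeR called the same 4 among 3201 of 28415 genes (11.3%). The lowest adjusted p belonged to *Ptprq*, with a log2 ratio at P6 minus that at P1 of -1.28 ± 0.33 (adjusted p = 0.0621). It was followed by *Eps8*, with 0.86 ± 0.24 (adjusted p = 0.076), *Loxhd1*, with 1.14 ± 0.36 (adjusted p = 0.111), *Strc*, with 1.33 ± 0.43 (adjusted p = 0.118), and *Grxcr1*, with 1.45 ± 0.48 (adjusted p = 0.123). The values of *Eps8*, *Strc*, *Loxhd1* and *Grxcr1* were above 0 and that of *Ptprq* below 0, and none passed the test in edgeR. Leaving out P1 GFP- replicate 2 called *Eps8* and *Strc*, leaving out P6 GFP+ replicate 2 called *Grxcr1* and *Ptprq*, and leaving out P6 GFP- replicate 2 called *Myo3a*, while 745, 2991 and 366 genes were called in all. For *Ptprq* the adjusted p was 0.0123 without P6 GFP+ replicate 1 and 0.00125 without replicate 2.

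Levels of different genes were compared per kilobase of exon in the NCBIM37 annotation. In P1 GFP+ cells the order was *Triobp* (13.6 ± 0.919, SD, n = 2, CPM per kb), *Ptprq* (10.6 ± 1.26), *Grxcr1* (8.24 ± 0.136), *Eps8* (7.26 ± 0.319), *Loxhd1* (6.28 ± 1.05), *Eps8l2* (5.50 ± 1.15), *Strc* (4.94 ± 1.25), *Fscn2* (4.21 ± 1.31), *Espn* (4.16 ± 1.10) and *Myo3a* (3.23 ± 0.145). The first 4 did not overlap with their neighbours, and the replicates of *Loxhd1*, *Eps8l2*, *Strc* and *Fscn2* each overlapped with those of the next gene in the order. *Grxcr1* has the shortest exon length of the 10, at 1071 bases. In P6 GFP+ cells *Triobp* (11.6 ± 1.16) and *Eps8* (8.55 ± 0.323) came first, *Strc* moved up to the third place (5.43 ± 0.30) and overlapped with *Ptprq* (4.49 ± 1.80), and *Myo3a* was again last (0.733 ± 0.125). In P6 GFP- cells *Triobp* (7.11 ± 0.12) and *Eps8* (5.12 ± 0.369) stood far above the others, of which the highest was *Ptprq* (1.32 ± 0.0369) and the lowest was *Myo3a* (0.0462 ± 0.0451).

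**Figure D3:**
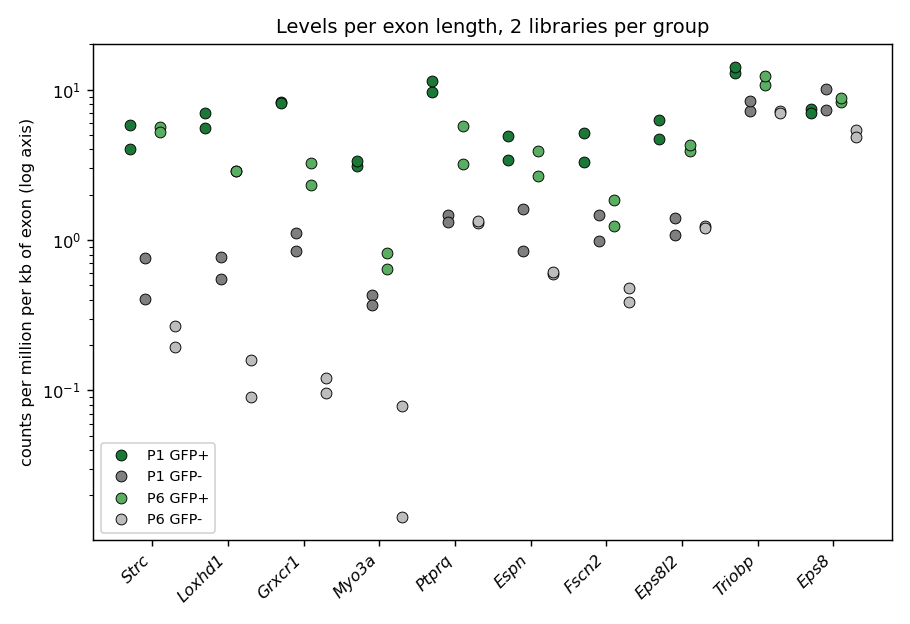
Levels of the hair bundle genes per exon length (CPM per kilobase, log axis), with 2 points per group. *Triobp* and *Eps8* lie between 4.86 and 14.2 in all 8 libraries, while *Myo3a* spans 0.0143 to 3.33.

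Because most hair cell markers were higher in GFP+ cells, each hair bundle gene was also set against the mean log2 CPM of 3 hair cell genes in the same library, *Pou4f3* and *Lhx3*, which encode hair cell transcription factors, and *Myo7a*, which encodes a hair cell myosin. No test was made on these values. The geometric mean of the 3 reference genes was 18.5 and 25.2 CPM in P1 GFP+, 2.81 and 3.26 CPM in P1 GFP-, 9.56 and 9.68 CPM in P6 GFP+, and 1.07 and 1.04 CPM in P6 GFP- cells. On this relative log2 scale *Strc* was at 0.45 and 0.53 in P1 GFP+ and at 1.88 and 1.75 in P6 GFP+ cells, a difference of 1.32 with no overlap. *Eps8* (1.4), *Triobp* (0.93), *Espn* (0.82) and *Eps8l2* (0.75) had higher relative levels at P6 as well, without overlap. The reference itself was lower at P6 in both fractions, so a gene of unchanged CPM has a higher relative level there. In edgeR, neither *Strc* nor these genes changed with age in GFP+ cells at an adjusted p below 0.05. *Myo3a* had a lower relative level in P6 GFP+ cells, by -0.98. The ages overlapped for *Grxcr1* (-0.42), *Fscn2* (-0.28), *Ptprq* (-0.13) and *Loxhd1* (0.04). These values depend on the reference, since against *Pou4f3* alone the differences were 0.56 for *Strc*, -0.0045 for *Eps8l2* and -1.74 for *Myo3a*, and against *Myo7a* alone they were 1.99, 1.42 and -0.32. In GFP- cells the relative level of P6 minus P1 was -2.05 for *Myo3a*, -1.63 for *Grxcr1* and -0.91 for *Loxhd1*, and it was below 0 with each of the 3 reference genes alone. It was 1.45 for *Ptprq* and 1.51 for *Eps8l2*.

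Set against the mean of the 3 reference genes at P1, the relative levels of 5 genes were at most 0.43 apart between the fractions, which depended on the reference. GFP+ cells exceeded GFP- cells in the relative log2 level by 0.30 for *Strc*, 0.26 for *Grxcr1*, 0.08 for *Ptprq* and 0.19 for *Myo3a*, all with overlap, and by 0.43 for *Loxhd1*. Against *Myo7a* alone the same values were 1.49, 1.45, 1.27, 1.37 and 1.62. *Espn* (-1.02), *Fscn2* (-1.06), *Eps8l2* (-0.69), *Triobp* (-2.03) and *Eps8* (-3.07) were relatively lower in GFP+ cells. At P6 the values were 1.38 for *Strc*, 1.47 for *Grxcr1*, 1.38 for *Loxhd1* and 1.25 for *Myo3a*, the last with overlap. The other genes were below 0 at P6, at -1.49 for *Ptprq*, -1.45 for *Eps8l2*, -1.38 for *Fscn2*, -0.78 for *Espn* and -2.5 for both *Triobp* and *Eps8*. *Myo7a* itself had log2 fold changes of 1.76 ± 0.15 at P1 and 0.89 ± 0.25 at P6 (edgeR adjusted p = 0.041 at P6). Without P6 GFP- replicate 1 or 2 the P6 value was 0.75 or 1.10. The interaction test called none of the 3 reference genes at an adjusted p below 0.05. Against *Pou4f3* alone all 10 genes had negative values at P1, from -0.29 for *Loxhd1* to -3.79 for *Eps8*. At P6 *Strc* (0.21), *Grxcr1* (0.30), *Loxhd1* (0.21) and *Myo3a* (0.08) were slightly positive against it. The other genes were negative, from -1.95 for *Espn* to -3.67 for *Triobp*, with *Ptprq* at -2.66. Against *Myo7a* alone *Espn* (0.16), *Eps8l2* (0.49) and *Fscn2* (0.13) turned positive at P1, and *Espn* (1.53), *Eps8l2* (0.85), *Fscn2* (0.93) and *Ptprq* (0.82) at P6.

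**Figure D4:**
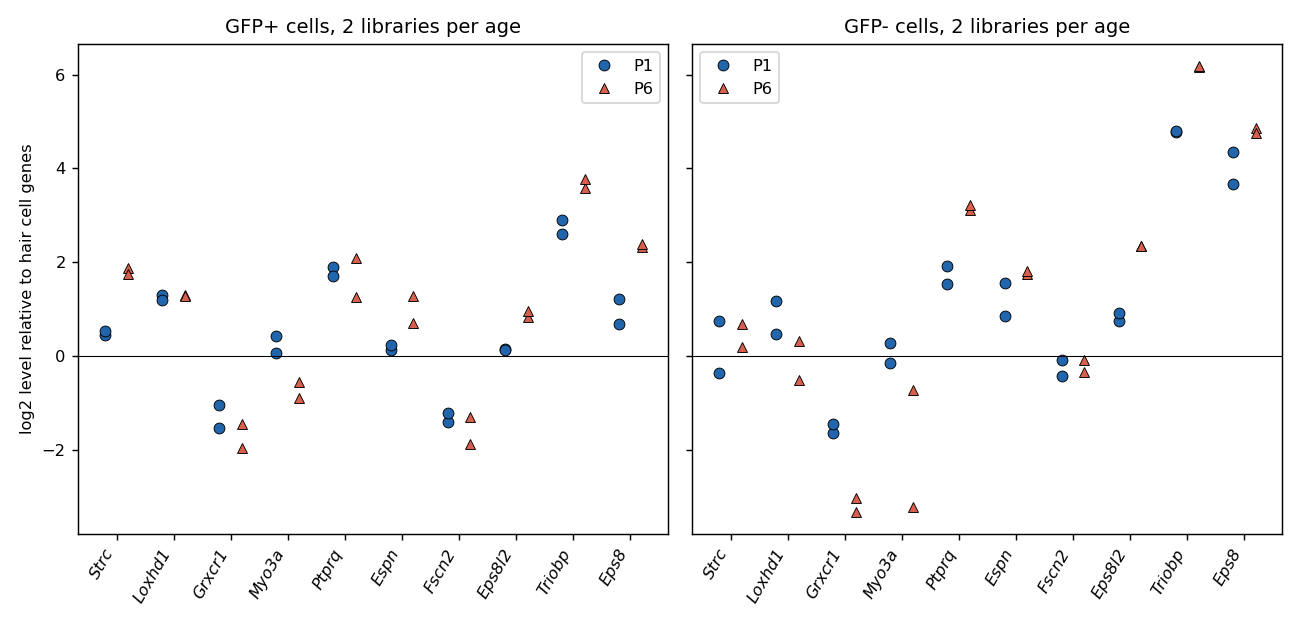
Log2 level of each hair bundle gene relative to the mean of *Pou4f3*, *Lhx3* and *Myo7a* in the same library, in GFP+ (left) and GFP- cells (right), with circles for P1 and triangles for P6. In GFP+ cells the P6 points of *Strc* lie at 1.75 and 1.88, above its P1 points, and in GFP- cells those of *Ptprq* lie at 3.12 and 3.22 against 1.53 and 1.91 at P1.

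Other genes of the stereocilia were taken as 3 lists with 33 genes, of which 32 were tested. At P1, 8 were past the criteria and higher in GFP+ cells (6.46% of all genes were higher) and 2 were lower (11.4% of all genes were lower). At P6 the counts were 10 (4.88% higher) and 0 (3.1% lower), with 5 lower at an adjusted p below 0.05 (17.9% of all genes). As for the 10 genes above, the P6 counts depended on single libraries. Their median log2 fold changes of 0.74 and 0.71 were below those of the 10 genes above. In the list of actin and crosslinkers, *Espnl*, which is related to espin, was at 46.7 and 64.7 CPM in P1 GFP+ and 5.94 and 6.42 CPM in P1 GFP- cells. The difference was 3.27 ± 0.17 on the log2 scale (adjusted p = 4.27e-05), and 4.07 ± 0.20 (adjusted p = 0.000645) at P6. *Xirp2*, an actin-binding repeat protein, was higher in GFP+ cells by 3.27 ± 0.21 (adjusted p = 8.1e-05) and 3.77 ± 0.35 (adjusted p = 0.00201), and it fell with age in GFP+ cells by 1.18 (SE 0.22, adjusted p = 0.023, and 0.222 or 0.231 without P1 GFP+ replicate 1 or 2). *Lcp1*, the plastin of white blood cells, was instead lower in GFP+ cells at P1, by -3.21 ± 0.14 (adjusted p = 2.7e-05), and rose in GFP+ cells by 2.28 ± 0.29 (adjusted p = 0.00931, and 0.0524 without P1 GFP+ replicate 2). It was at 3.05 and 3.29 CPM in P1 GFP+ and 11.1 and 17.9 CPM in P6 GFP+ cells, and the summed macrophage and blood markers in the same libraries were 20.2, 23.3, 53.1 and 128 CPM. Their part in the rise was not tested. Of the 8 tested genes of this list, 3 were lower in GFP+ cells at an adjusted p below 0.05 at each age, *Lcp1*, *Fscn1* and *Pls3*. Over all genes 28.1% were lower at P1 and 17.9% at P6. *Pls3*, which encodes a plastin of many tissues and is named after its values were seen, was lower by -2.07 ± 0.13 (adjusted p = 7.96e-05) at P1 and -1.49 ± 0.21 (adjusted p = 0.00593) at P6. In the interaction test 3 of the 32 genes had an adjusted p below 0.05, where 6.38% of all genes did. *Lcp1* was also 1 of 3 genes of the lists, and the one with a higher ratio at P6, that differed between the ages in the interaction test, with 1.64 ± 0.31 (adjusted p = 0.0215, and above 0.05 in 4 of the 8 fits that leave out 1 library).

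In the list of the tip, 2 of the 10 tested genes at P1 and 3 at P6 were past the criteria and higher in GFP+ cells (6.46% and 4.88% of all genes). *Myo15*, the myosin that carries whirlin to the tip, was at 98.6 and 124 CPM in P1 GFP+, 13.6 and 10.7 CPM in P1 GFP-, 34.4 and 44.0 CPM in P6 GFP+, and 3.42 and 5.38 CPM in P6 GFP- cells. The log2 fold changes of GFP+ over GFP- cells were 3.30 ± 0.17 (adjusted p = 3.7e-05) and 3.15 ± 0.28 (adjusted p = 0.00175), and *Myo15* fell by 1.41 (SE 0.17, adjusted p = 0.00813) in GFP+ cells and by 1.27 (SE 0.26, adjusted p = 0.0176, and 0.118 without P6 GFP- replicate 1) in GFP- cells. In the list of the base, taper and rootlet, 3 of 14 genes at P1 and 4 at P6 were past the criteria and higher in GFP+ cells, beside the same shares. *Grxcr2*, the relative of *Grxcr1*, had log2 fold changes of 3.54 ± 0.20 (adjusted p = 5.15e-05) and 4.17 ± 0.39 (adjusted p = 0.00192).

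*Smpx*, a small protein of muscle and stereocilia, was among the 4 genes of this list that rose with age in GFP+ cells, where 3 fell. It was at 25.8 and 24.4 CPM in P1 GFP+ and rose to 81.7 and 47.6 CPM in P6 GFP+ cells (log2 fold change 1.46 ± 0.29, adjusted p = 0.0273, and 0.111 without P1 GFP+ replicate 2), against 1.33 to 2.19 CPM in the 4 GFP- libraries. *Elmod1*, which encodes a GTPase-activating protein, was past the criteria at P6 with 3.19 ± 0.35 (adjusted p = 0.00295) and at 1.73 ± 0.50 (adjusted p = 0.0283, and 0.0808 or 0.102 without P1 GFP+ replicate 1 or 2) at P1. With age, no gene of the 3 lists fell past the criteria in either fraction. In GFP+ cells 7 of 32 fell (8.31% of all genes) and 9 rose (12.1%) at an adjusted p below 0.05. Of the 9, 2 rose past the criteria (1.63% of all genes). In GFP- cells 6 fell (7.87%) and 2 rose (11.3%) at an adjusted p below 0.05.

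The hair cell markers moved with age in both directions. In GFP+ cells 2 of 15 rose (12.1% of all genes) and 5 fell (8.31%) at an adjusted p below 0.05. Of these, 2 and 2 were past the criteria (1.63% and 0.93% of all genes). In GFP- cells 3 of 14 rose (11.3%) and 8 fell (7.87%) at an adjusted p below 0.05. The risers in GFP+ cells, named after their values were seen, are genes of outer hair cells. *Ocm*, which encodes the calcium-binding protein oncomodulin, was at 0.567 and 0.362 CPM in P1 GFP+, 0.0792 and 0.0951 CPM in P1 GFP-, 86.2 and 34.4 CPM in P6 GFP+, and 1.78 and 1.14 CPM in P6 GFP- cells, and the P1 GFP- values rest on 3 and 6 counts. It rose by 7.04 ± 0.64 (adjusted p = 0.00428) in GFP+ cells. *Slc26a5*, which encodes the motor protein prestin, was at 0.698 and 1.21 CPM in P1 GFP+, 0.317 and 0.143 CPM in P1 GFP-, 15.1 and 19.8 CPM in P6 GFP+, and 1.15 and 0.739 CPM in P6 GFP- cells. Its rise was 4.32 ± 0.34 (adjusted p = 0.00332) in GFP+ and 2.30 ± 0.53 (adjusted p = 0.0277, and 0.187 or 0.0635 without P6 GFP- replicate 1 or 2) in GFP- cells. Both genes passed the test in GFP+ cells without any 1 library. The other risers in GFP- cells were *Ocm* (adjusted p = 0.00247) and *Dll1* (1.13 ± 0.22, adjusted p = 0.0153, and 0.0943 or 0.104 without the same libraries). *Atoh1*, the transcription factor that starts hair cell differentiation, was at 7.62 and 9.48 CPM in P1 GFP+ and 0.844 and 1.04 CPM in P6 GFP+ cells, and it fell by 3.07 (SE 0.29, adjusted p = 0.00457). In GFP- cells *Atoh1* had 13 and 25 counts at P1 and 1 and 0 counts at P6. *Pou4f3* changed in GFP+ cells by -0.31 ± 0.25 (adjusted p = 0.418), whereas *Lhx3* fell by 1.18 (SE 0.27, adjusted p = 0.037, and 0.1 or 0.378 without P1 GFP+ replicate 1 or 2) and *Myo7a* by 1.73 (SE 0.21, adjusted p = 0.00823). *Otof*, the calcium sensor of hair cell exocytosis, was at 151 and 191 CPM in P1 GFP+ and at 114 and 118 CPM in P6 GFP+ cells (-0.47 ± 0.15, adjusted p = 0.0787). *Slc17a8*, the vesicular glutamate transporter of inner hair cells, was at 4.39 to 5.29 CPM in all libraries but P6 GFP+ replicate 2, which held more. Its log2 fold changes of GFP+ over GFP- cells were -0.02 ± 0.20 (adjusted p = 0.949) at P1 and 0.20 ± 0.31 (adjusted p = 0.663) at P6. The study thought that the cells of weak GFP signal, which were not collected, probably included inner hair cells.

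For each hair bundle gene the genes of most like pattern were sought among 15264 other genes, as the smallest root mean square difference in log2 level over the 8 libraries, each gene centred on its mean. *Grxcr1* was closest to *Xirp2* (0.19), and both *Myo3a* (0.36) and *Loxhd1* (0.36) were closest to *Myo15*. *Espn* was closest to *Elmod1* (0.20), and *Strc* was closest to *Chrna10* (0.29), a subunit of the efferent acetylcholine receptor of hair cells. Thus 5 of the 10 had a gene of the fixed stereocilia lists (33 genes) or of the hair cell list (15 genes) in the first place. The lists were chosen with earlier results of these data known, so this count is a description only. *Ptprq* was closest to *Fut9* (0.22), *Eps8l2* to *Susd1* (0.11), *Triobp* to *Gramd4* (0.06), *Fscn2* to Gm16707 (0.16) and *Eps8* to Gm12276 (0.15). In second place stood *Efna3*, *Ubl4*, *Ptpru*, *N4bp1*, B930095G15Rik, *Grtp1*, Gm2694, *Paqr3*, *Hmga2* and *Ptprz1* for *Espn*, *Eps8*, *Eps8l2*, *Triobp*, *Strc*, *Grxcr1*, *Fscn2*, *Ptprq*, *Myo3a* and *Loxhd1*, and in the third AU022754, Gm5446, 1520402A15Rik, 2310008H09Rik, *Cd164l2*, *Igdcc3*, *Thsd7b*, *Syne2*, *Barhl1* and *Igsf9*. Among the 10 genes themselves, the closest pairs were *Espn* with *Eps8l2* (0.38) and *Eps8* with *Triobp* (0.41), and the most distant was *Eps8* with *Loxhd1* (1.80). The points of each pair share the libraries and their depth, so these values are descriptions.

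In the NCBIM37 (mm9) build used for the counts, *Strc* lies at chr2:121189464-121212904 on the minus strand and *Myo3a* at chr2:22149130-22473772 on the plus strand. *Espn* lies at chr4:151494440-151526480 (minus), *Grxcr1* at chr5:68423074-68557637 (plus), *Eps8* at chr6:137425766-137603397 (minus) and *Eps8l2* at chr7:148524779-148548919 (plus). *Ptprq* lies at chr10:106954416-107157083 (minus), *Fscn2* at chr11:120222848-120229482 (plus) and *Triobp* at chr15:78778154-78836299 (plus). *Strc* shares 10 exon bases with *Ckmt1*.

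RefSeq promoter windows (GRCm38.p6, 250 bases before and 50 after a gene start) were given for 7 of the 10 genes, in 10 windows, and not for *Eps8*, *Ptprq* and *Loxhd1*. They were searched on both strands for CAGNTG, the E-box form bound by ATOH1, and CANCTG is the same motif on the other strand. The motif was found in 5 of the 10 windows, in those of *Strc*, *Espn*, *Eps8l2* and *Triobp*, and in 51.4% of all 32851 windows of the table, a share near that of the 10 windows. The 250 bases before the start are shown for *Strc* and *Espn*, with the most matches of the 10, and for *Grxcr1* and *Myo3a*, which had none and fell with age in both fractions. Capitals mark the motif.
Strc, chr2:121380941-121381190 (minus): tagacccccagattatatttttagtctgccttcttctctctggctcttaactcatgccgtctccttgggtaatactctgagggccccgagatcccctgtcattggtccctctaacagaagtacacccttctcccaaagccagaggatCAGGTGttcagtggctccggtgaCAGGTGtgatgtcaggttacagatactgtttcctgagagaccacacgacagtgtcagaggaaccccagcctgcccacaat
Espn, chr4:152128926-152129175 (minus): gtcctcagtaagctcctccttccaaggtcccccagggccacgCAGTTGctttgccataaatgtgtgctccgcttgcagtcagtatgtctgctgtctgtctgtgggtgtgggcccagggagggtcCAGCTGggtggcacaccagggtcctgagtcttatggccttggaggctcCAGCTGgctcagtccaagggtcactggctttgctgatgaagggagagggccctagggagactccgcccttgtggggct
Grxcr1, chr5:68031585-68031834 (plus): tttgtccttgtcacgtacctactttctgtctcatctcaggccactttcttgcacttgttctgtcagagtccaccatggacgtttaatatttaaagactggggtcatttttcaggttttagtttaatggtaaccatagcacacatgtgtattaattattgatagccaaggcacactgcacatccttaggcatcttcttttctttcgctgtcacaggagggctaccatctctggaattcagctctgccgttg
Myo3a, chr2:22227253-22227502 (plus): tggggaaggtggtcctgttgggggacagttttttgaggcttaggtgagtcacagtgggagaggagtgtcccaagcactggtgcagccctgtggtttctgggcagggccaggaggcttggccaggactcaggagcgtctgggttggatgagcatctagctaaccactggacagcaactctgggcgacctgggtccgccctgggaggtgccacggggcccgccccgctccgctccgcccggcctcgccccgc

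Each of the 4 sequences matched its chromosome of NCBIM37 exactly and in 1 place. There the *Grxcr1* and *Myo3a* sequences end at the base before the annotated gene start, at chr5:68422824-68423073 and chr2:22148880-22149129. The *Strc* and *Espn* sequences, at chr2:121206677-121206926 and chr4:151503035-151503284, lie inside the annotated genes and overlap no annotated exon, so they are intronic for the longer transcripts. In *Strc* the matches in the sequence start 103 and 80 bases before the RefSeq start, and a further CACCTG lies after the start. In *Espn* they start 208, 126 and 78 bases before it, and of the other *Espn* windows 1 had a match and 1 had none. The 7 genes with a promoter window were all higher in GFP+ cells at both ages. The part of the motif in these levels was not tested.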

How the data were processed

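RNA-seq libraries from 4 groups (P1 and P6, GFP+ and GFP-), with 2 replicates each, were analysed. The authors aligned the reads with TopHat (1.4.0 in the submitters' processing notes) to mm9 and deposited HTSeq counts per Ensembl gene, with DESeq 1.9.2 named for their own tests. The counting mode and strand setting are not given in the sources used here. Totals of 17769024 to 67695039 gene counts per library (64.7 to 76.2% of the reported total, rows of unassigned reads left out) set the precision of low genes. Of the 36536 genes, 34391 were matched by Ensembl ID to symbols in the NCBIM37 annotation. Promoter sequences came from RefSeq (GRCm38.p6), and proteins were not analysed here.

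Counts were tested with edgeR 4.0.16 in R 4.3.3 (TMM scaling, filterByExpr with a count minimum of 10 and a total of 15, quasi-likelihood test, Benjamini-Hochberg adjustment over all genes), with 4 libraries in each pairwise fit and 8 in the interaction. The fits were tested on simulated data first. Alternatives were library totals, DESeq2 1.42.0 size factors, the DESeq2 test, no filter, all 8 libraries in 1 fit, a replicate block and each library left out. The replicate numbers name the libraries and are not said to pair them. Lists of stereocilia genes, hair cells, supporting cells, mesenchyme and cartilage, glia, neurons, melanocytes, macrophages and blood, and endothelium were used. The 10 genes and the lists were chosen with earlier results of these data known. Named were all 10 genes, of the other stereocilia genes the 8 past the criteria with the largest fold changes at a mean of at least 1 CPM, 6 hair cell markers, 4 paralogues and the 3 genes of most like pattern per gene, in log2(CPM + 0.5).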

Additional observations from a re-analysis of the deposited data

Results flagged for a closer look

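*Lcp1*, the plastin of white blood cells and a member of the list of stereocilia crosslinkers, had a ratio of GFP+ to GFP- cells that differed between P1 and P6. The interaction of age and fraction was 1.64 on the log2 scale (SE 0.31, edgeR adjusted p = 0.0215, and from 0.072 to 0.119 without P1 GFP+ replicate 1 or 2 or P6 GFP- replicate 1 or 2). Its level was 3.05 and 3.29 CPM in P1 GFP+, 33.1 and 30.2 CPM in P1 GFP-, 11.1 and 17.9 CPM in P6 GFP+, and 46.0 and 39.0 CPM in P6 GFP- cells, so that the log2 fold change of GFP+ over GFP- cells was -3.21 at P1 and -1.56 at P6. The summed level of 5 macrophage and blood markers was 20.2 and 23.3, 369 and 320, 53.1 and 128, and 471 and 764 CPM in the same order, and their part in the *Lcp1* values was not tested.

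*Dll1*, which encodes a Notch ligand and stands among the hair cell markers, also had a ratio of GFP+ to GFP- cells that differed between the ages. Its interaction was -1.71 on the log2 scale (SE 0.39, edgeR adjusted p = 0.0435, and from 0.0741 to 0.186 without any 1 of the P1 libraries or the P6 GFP- libraries). The level was 2.92 and 3.78 CPM in P1 GFP+, 3.72 and 3.15 CPM in P1 GFP-, 1.63 and 2.58 CPM in P6 GFP+, and 6.14 and 7.03 CPM in P6 GFP- cells.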

How the results depend on the processing

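Of the log2 fold changes of the 10 hair bundle genes under all alternatives, 489 kept their direction and side of the threshold, 32 passed it newly, 16 no longer passed it and 13 changed sign. Leaving out each library in turn gave 6 to 8 genes past the criteria at P1, 0 to 6 at P6 (0 to 1106 of all genes), 0 to 1 that fell with age in GFP+ cells, 0 to 3 that fell in GFP- cells, and in the interaction 0 to 2 with a higher and 0 to 1 with a lower ratio at P6. A fit of all 8 libraries left 0 genes that fell past the criteria in GFP+ cells (*Myo3a*, adjusted p = 0.0129). In the interaction, library totals called 1 higher ratio, the DESeq2 test 3 higher and 1 lower, and edgeR without the filter 3 higher and 1 lower. Differences in level relative to the hair cell genes were also taken with each reference gene alone. Of these, 101 moved by at least the SD of the replicates and 19 by less.

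With the replicate number as a block, 0 genes fell past the criteria in GFP- cells, where *Grxcr1* had an adjusted p of 0.0185 and *Loxhd1* of 0.0143, and *Myo3a* passed them at P6. The block changed no other count of hair bundle genes past the criteria by more than 1.5 times. Differences between replicates 1 and 2 correlated over genes by 0.03 at P1 and 0.06 at P6 between the fractions. Between the ages they correlated by -0.14 in GFP+ and -0.32 in GFP- cells. With 1 such difference per group, these values cannot tell whether libraries with the same number share an origin. A crossed pairing of the ages, added after seeing the data, gave 1 gene that fell in GFP+ and 3 in GFP- cells.

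Library totals shifted every log2 fold change by -0.10 at P1, 0.01 at P6, -0.09 with age in GFP+ and -0.19 in GFP- cells. This turned *Eps8l2* (-0.028), *Triobp* (-0.14) and *Ptprq* (-0.079) with age in GFP- cells and *Fscn2* (0.051) in the interaction. Leaving out 1 library turned 5 values. *Eps8* at P1 ranged from -0.37 without P1 GFP- replicate 2 to 0.080 without P1 GFP- replicate 1. *Espn* with age in GFP+ cells ranged from -0.57 without P6 GFP+ replicate 1 to 0.047 without P6 GFP+ replicate 2, and was 0.021 without P1 GFP+ replicate 2. With age in GFP- cells, *Eps8l2* ranged from -0.021 to 0.35 and *Triobp* from -0.064 to 0.16 without P1 GFP- replicate 1 and replicate 2. *Fscn2* in the interaction ranged from -0.40 without P6 GFP+ replicate 1 to 0.29 without P1 GFP+ replicate 2. None of these values was past the test before. The causes were not tested.

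Over all genes, those past the criteria and lower in GFP+ cells at P6 numbered 567, against 295 with library totals, 1211 with the DESeq2 test, 1473 without the filter, 1294 with all 8 libraries and 955 with the block. In GFP+ cells 281 rose with age, against 778, 1019, 752 and 426 with the DESeq2 test, no filter, all 8 libraries and the block and 460 with the crossed block, and 160 fell, against 261, 368 and 260 with the first 3 of these. In GFP- cells 79 fell, against 187 with the DESeq2 test, 288 without the filter and 228 with the crossed block. In the interaction 692 ratios were higher and 536 lower, against 1470 and 842, 2128 and 1073, and 401 and 349 with the DESeq2 test, no filter and the block.

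Of 16 other genes named from the lists, those with an adjusted p below 0.05 that lost it without some library numbered 3 of 15 at P1, 4 of 16 at P6, 7 of 12 with age in GFP+ cells, 11 of 12 in GFP- cells and 2 of 2 in the interaction.

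Depth limits *Grxcr1* and *Myo3a* in P6 GFP- cells, where the libraries hold 7 to 42 counts.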
